A study of Rattus norvegicus with 6 samples.

Results

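The comparison described here set the hippocampus of rats trained by intense exercise (IE) against that of sedentary control rats (CONT). It consisted of the 2 arrays, of 6 in the series, on which RNA of these groups was hybridised together, once with IE in the red dye (Cy5, array 1) and once with the dyes exchanged (array 2). The arrays were chosen by their labels and not by any measured value. All animals were male Wistar rats, 11 weeks old at the start. IE rats ran on a level treadmill at a set speed of 40 m/min, above the lactate threshold, and CONT rats rested on the treadmill. Sessions lasted 60 min, warm-up included, on 5 days a week. Training took 6 weeks in total, and the habituation to running was part of these 6 weeks. A mild exercise group (ME) ran at 15 m/min, below that threshold. Running was forced: the exercise groups were habituated with slight electric shocks, for 4 weeks in IE and 1 week in ME. After habituation, ME rats trained without shocks, whereas certain IE rats that stopped running sparingly received more. Some IE rats that would not run were left out of the study. The labels and the study's methods differ on how long after the last session the tissue was taken.

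Each channel held 1 pool of equal RNA amounts from 5 rats per group. The labels number the pools, but the methods describe a single pool per group, so both arrays were counted as 1 replicate. No test of IE against CONT over animals was therefore possible, and no p-value is given. Ratios are log2(IE/CONT), averaged over both arrays with the standard deviation (SD) between them (n = 2 arrays). This SD is technical and does not measure variation between rats, and the number of arrays limits the precision.

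The hippocampus lies beside the lateral ventricle, and the choroid plexus, a folded epithelium that secretes cerebrospinal fluid, is attached along its edge. This epithelium makes very large amounts of transthyretin (Ttr), a carrier of thyroxine and of the retinol-binding protein. Long-term running is known for its effects on neurogenesis, growth factors and blood vessels in the hippocampus, and strenuous forced running also activates the glucocorticoid stress axis.

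Of 41012 gene probes, 28744 (70.1%) stood well above background in all 4 readings (IE and CONT on each array), and these were examined first. IE and CONT differed little over this set. The median log2 ratio was 0.0018, the 1st and 99th percentiles were -0.256 and 0.257, and 98.2% of the probes lay within 1.2-fold. Only 12 probes were at least 1.5-fold higher in IE (0.0417% of those read) and 7 were at least 1.5-fold lower (0.0244%). At 1.2-fold, 267 probes were higher (0.929%) and 257 were lower (0.894%).

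Single arrays were dominated by dye. Ratios of the 2 arrays, both turned to IE over CONT, correlated at -0.648 across the 28744 probes, which means that most of each array's ratio followed the dye and not the group. Genes are not independent replicates, and this value is only a description. The mean over the dye swap cancels such an effect, and values of ME against CONT and of IE against ME are likewise means over their own dye swaps. The median SD between arrays was 0.141, and it was 0.0598 after the dye effect measured on the ME against CONT arrays had been subtracted. Both values are over the 28105 probes that were also well above background on the ME against CONT arrays. After this subtraction the correlation of the 2 arrays across these probes was -0.126. The same dye estimate enters the 2 turned arrays with opposite signs, so its error lowers this correlation. The value therefore cannot show whether the arrays share a group effect. Probes that went far in the same direction on both arrays stood apart from the diagonal cloud of the unadjusted ratios.

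**Figure D1:**
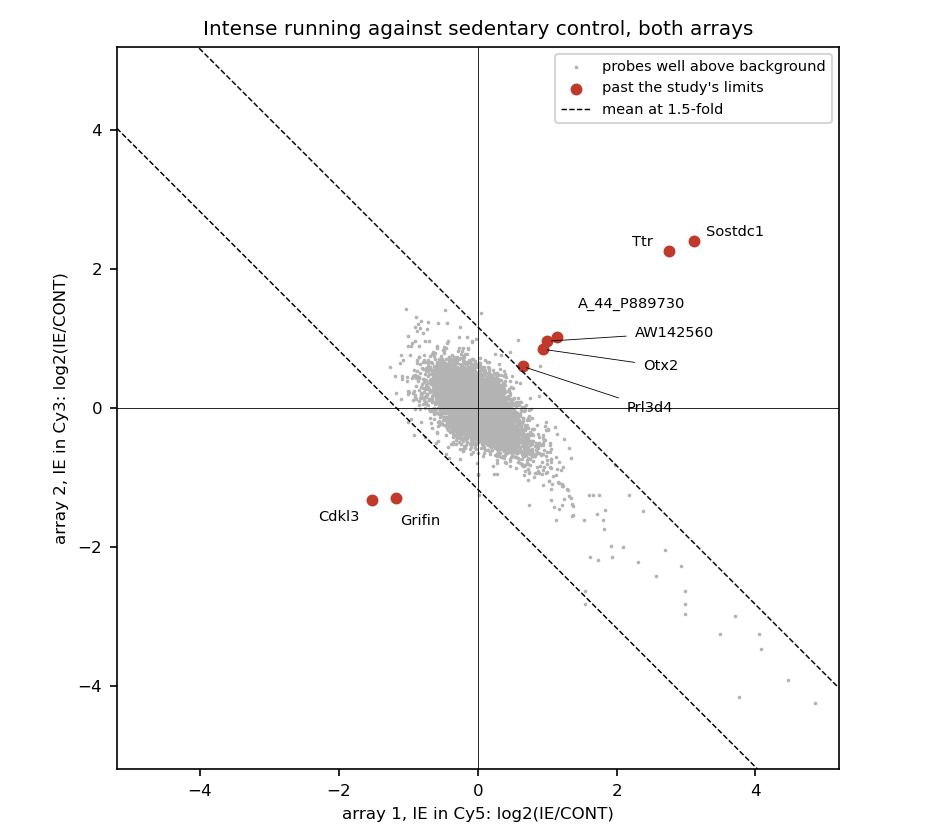
Log2(IE/CONT) on array 1 (x axis, IE in Cy5) against array 2 (y axis, IE in Cy3); each grey point is 1 of the 28744 probes well above background in all 4 readings, red points are those past the study's limits, and dashed lines mark a mean of 1.5-fold. The cloud slopes downward (correlation -0.648), and Sostdc1 and Ttr lie alone at the upper right while Cdkl3 and Grifin lie at the lower left.

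Limits were built here from the fold and p thresholds of the study, and are called the study's limits: a Cy5/Cy3 ratio of at least 1.5 on one array and at most 0.75 on the exchanged array, with the scanner software's p below 0.01 on both. This software p reflects measurement noise on a spot and not animals. Applied to all 41012 probes, these limits were passed by 12 probes, of which 10 were higher in IE (0.0244%) and 2 were lower (0.00488%). All 4 readings were well above background for 8 of these 12.

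The largest ratio belonged to Sostdc1, which encodes a secreted antagonist of BMP and WNT signalling. Its processed signal was 456.6 in IE and 52.9 in CONT on array 1, and 488.7 and 91.8 on array 2. The log2 ratio was 3.11 on array 1 and 2.41 on array 2 (mean 2.76 ± 0.49, 6.78-fold). With normexp background correction, an offset of 50 and loess, Sostdc1 stood at 1.77 and Ttr at 2.33. With loess and no background subtraction they stood at 1.77 and 2.32, so Sostdc1 was below Ttr under both settings. Against the same CONT pool the ME pool gave 0.69, and IE against ME gave 2.02. Both IE readings were thus several times above both CONT readings, and IE was also above ME in the separate hybridisation. Ttr behaved alike, at a higher level. Its signal was 3313 in IE and 488.9 in CONT on array 1, and 2943 and 611.2 on array 2. The log2 ratios were 2.76 and 2.27 (mean 2.51 ± 0.35, 5.71-fold), with 0.91 for ME against CONT and 1.92 for IE against ME. With the dye effect of the ME against CONT arrays subtracted, the arrays came closer together, at 3.01 and 2.51 for Sostdc1 and at 2.59 and 2.44 for Ttr.

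Otx2, a homeodomain transcription factor that the choroid plexus needs for its formation and upkeep, followed with log2 ratios of 0.94 and 0.85 (mean 0.89 ± 0.07). Its signal was 136.4 against 71.2 on array 1 and 132.6 against 73.7 on array 2. A further Otx2 probe, 663 bases away, gave only 0.09 and 0.21 (mean 0.15 ± 0.09) at lower signals of 24.8 to 58.1. These 2 probes were among the most discordant pairs of one gene. Their first 30 bases are shown because the ratio depended on which of them was read, with the probe of the larger ratio first.
Otx2 probe at chr15:24639154-24639213: aggcgtgatctgatgttttagccaatcttt
Otx2 probe at chr15:24639817-24639876: ctggctcgacttcctactttgggggcatgg

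Positions here and below are those of rat build rn3 given in the array files, which do not say whether a probe lies in an exon or a UTR; both Otx2 probes map to the minus strand.

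Past the limits were also 4 probes with no gene symbol, and their positions had a common feature that the selection did not use. Probe A_44_P889730, listed as unknown, gave 1.14 and 1.03 (mean 1.08 ± 0.08) with signals of 118.8 and 118.1 in IE and 54.0 and 58.0 in CONT. It starts 801 bases from the probe of Kl, the anti-ageing hormone klotho, on the same strand. The probe for the cDNA clone AW142560 gave 1.00 and 0.96 (mean 0.98 ± 0.03), with signals of 373.9 and 364.6 in IE and 187.1 in CONT on both arrays. It starts 1375 bases from the probe of Clic6, an intracellular chloride channel protein of secretory epithelia, again on the same strand. AI454093 gave 2.84 and 1.75 (mean 2.30 ± 0.77) and starts 5824 bases from the Ttr probe, on the opposite strand. TC559290 gave 2.12 and 1.43 (mean 1.78 ± 0.49) and starts 5504 bases from the probe of Slc4a5, a sodium bicarbonate cotransporter, on the same strand. For the last 2, CONT was well above background on array 2 only.

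The first 30 bases of the 2 best measured unnamed probes are given because the sequence is their only identity.
A_44_P889730 at chr12:3731924-3731975: tgtaagtcttaatgactctcaccgctgaag
AW142560 at chr11:32616562-32616621: tttcttggaagctgtggcttcagtccagta

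All 4 genes beside these probes belong to the choroid plexus list described next. In all, 36 probes under other names lie within 10000 bases of a probe of that list, and 4 of them were past the study's limits, against 0.0244% of all probes in the same direction. This window was chosen after the values had been seen, and the count is a description. Of the 24 neighbours well above background, 2 were at least 1.2-fold higher and 1 was at least 1.2-fold lower, against 0.929% and 0.894% of all probes. A further unnamed probe among the largest rises, TC526364 (0.57 and 0.98, mean 0.78 ± 0.28), maps to chromosome 1 between the probes of Trpm3, 67.1 kb from one and 241 kb from the other, whereas the Trpm3 probes themselves gave -0.01 and -0.16.

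The choroid plexus list held 41 probes of 31 genes expressed in that epithelium. Of these, 24 probes of 19 genes were well above background in all 4 readings, 15 in 1 to 3 readings and 2 in none. The median of the 24 was 0.135, against 0.0018 over all probes, and 20 of the 24 (83.3%) were above 0, against 51.1% of all probes. The list was drawn up with earlier results of these data known, so its median, shares and counts are only a description. At 1.2-fold 5 were higher, against 0.929% of all probes, and 0 were lower, against 0.894%. The 5 were Sostdc1, Ttr, Otx2, Steap1 and Aqp1. Counts at this limit depend on the processing. Over all probes, 524 past 1.2-fold became 27 with normexp background correction, an offset of 50 and loess. They became 26 with loess and no background subtraction. The authors' software also normalised by loess, and these 2 settings add an offset or leave the background in. The part of each step was not tested. Steap1, a metalloreductase, gave 0.90 and 0.61 (mean 0.76 ± 0.21). Aqp1, the water channel of the apical membrane of this epithelium, gave 0.35 and 0.30 (mean 0.33 ± 0.04).

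Smaller positive values were shared by several other members. Krt18, an epithelial keratin, gave 0.26 ± 0.12 and 0.25 ± 0.05 with its 2 probes. The files place these on chromosomes 2 and 10, whereas build GRCr8 has Krt18 on chromosome 7. Whether they read Krt18 was not tested. Krt8, another keratin of the list, gave 0.01. Ace, the angiotensin-converting enzyme, gave 0.25 ± 0.30 and 0.23 ± 0.02 with its 2 probes. Folr1, a folate receptor, gave 0.12 ± 0.05. Other members lay near or below 0, among them Wfdc2 (0.02 ± 0.07), Slco1a5, an organic anion transporter (-0.07 ± 0.03), and Cldn1, a tight junction protein (-0.12 ± 0.05).

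**Figure D2:**
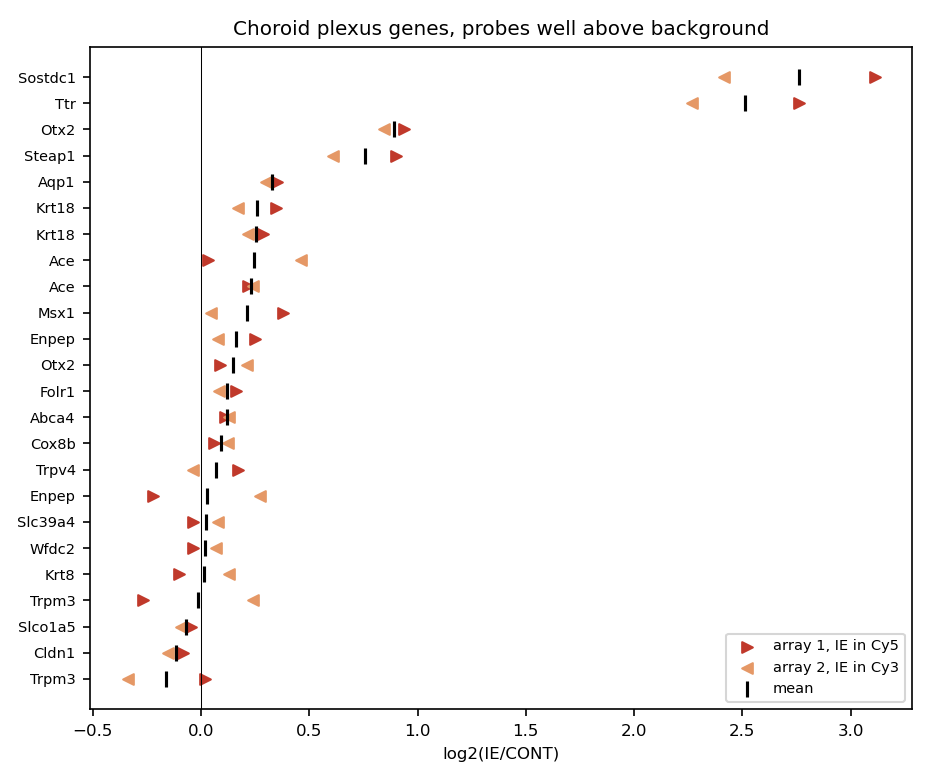
Log2(IE/CONT) (x axis) for the 24 choroid plexus probes well above background in all 4 readings, ordered by their mean (black bar), with triangles for arrays 1 and 2; a gene with several such probes has several lines. Values run from -0.16 to 2.76, and 20 of the 24 means lie above 0.

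In bulk tissue, more cells of a type and more RNA per cell cannot be told apart. The summed signal of the 24 choroid plexus probes was 7669 in IE and 3868 in CONT on array 1, and 7262 and 4220 on array 2, so that IE was 1.98-fold and 1.72-fold higher. Most of this came from Ttr and Sostdc1. The other 22 probes summed to 3899 and 3327 on array 1 (1.17-fold) and to 3831 and 3517 on array 2 (1.09-fold), with a median of 0.120. The summed marker list was thus higher in the IE pool on both arrays, mainly through Ttr and Sostdc1. The part of choroid plexus tissue within the pools in the result was not tested. A sum above CONT on both arrays was not particular to this list. Hypothalamic and pituitary hormones summed to 1.16-fold and 1.05-fold in IE relative to CONT. That sum includes Prl3d4, a probe past the study's limits, and was not computed without it. Thalamus markers, over 5 probes, summed to 1.12-fold and 1.02-fold. Both lists stood below the 22 choroid plexus probes on each array. Ependyma markers summed to 0.953-fold and 0.907-fold. Blood markers, summed in the same way over 7 probes, were 0.861-fold and 0.874-fold in IE relative to CONT. Their median was -0.048, with Hbb and Hbb-b1, the beta globins, both at -0.21; 4 of the 7 were lower on both arrays and 0 higher on both, and their part in the result was not tested. In ME against CONT the median of the choroid plexus list was 0.020 over 22 probes, and in IE against ME it was 0.160 over 19. These comparisons share pools with the IE against CONT comparison and are given only side by side.

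Several choroid plexus genes were not well above background in all 4 readings, and their ratios are less certain. Cltrn (Tmem27 on the array), which encodes collectrin, was well above background in IE on both arrays and in CONT on neither. Its IE level was at least 2.44-fold above that of CONT, taking the lowest level readable as well above background as the bound. Kcnj13, an inwardly rectifying potassium channel, was read in IE on both arrays and in CONT on array 2 only, with ratios of 2.25 and 1.93 (mean 2.09 ± 0.23), the first against a CONT reading not well above background. The ME pool also exceeded CONT for this gene, by 1.73, and IE against ME gave -0.12. Clic6 itself gave 0.58 and 0.49 with 3 of 4 readings, one F5 probe, of a coagulation factor, 1.12 and 0.40 with 3, and Kl 0.96 and 0.32 with 1, that of CONT on array 2. Mfrp gave 1.41 and 2.96 but was read well above background once. Cldn2 was not well above background in any reading. A reverse pattern, readable in CONT on both arrays and in IE on neither, was found for 8 probes of other genes, with bounds of at most 1.42-fold.

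OTX-type homeodomain factors bind the DNA element TAATCC. It was sought, on both strands, in the 250 bases before the gene start given by RefSeq for build GRCr8. Of the genes past the limits or among the 15 largest rises and falls, 16 promoters were in the table and 1 of these (6.25%) held the element, against 6.34% of all 33469 promoters. That gene was Cltrn. Among 27 promoters of the choroid plexus list 4 (14.8%) held it: Cltrn, Ace, Mfrp and Abca4. Ttr and Kcnj13 did not hold these letters in this window. Sostdc1, Otx2, Folr1 and Clic6 were not in the table. The Cltrn promoter is shown as the one with the element among the largest changes, with the element in capitals, on the minus strand at chrX:34027125-34027374.
Cltrn: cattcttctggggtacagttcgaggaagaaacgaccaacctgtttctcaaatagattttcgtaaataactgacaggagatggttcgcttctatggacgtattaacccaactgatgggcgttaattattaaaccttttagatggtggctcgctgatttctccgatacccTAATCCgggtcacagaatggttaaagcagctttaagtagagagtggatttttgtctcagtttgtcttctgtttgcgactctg

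The largest falls were those of Cdkl3 and Grifin, and both were also low in ME. Cdkl3, a cyclin-dependent kinase-like kinase, had signals of 95.5 in IE and 275.0 in CONT on array 1, and 109.5 and 274.8 on array 2. Its log2 ratios were -1.53 and -1.33 (mean -1.43 ± 0.14, 2.69-fold lower). ME against CONT gave -1.37 and IE against ME gave 0.04, so both running pools lay below the same CONT pool by a like amount. Grifin, a galectin-related protein known from the lens, had signals of 158.6 and 149.9 in IE and 358.1 and 366.4 in CONT. The ratios were -1.18 and -1.29 (mean -1.23 ± 0.08, 2.35-fold lower), with -0.89 in ME against CONT and -0.46 in IE against ME. For both genes the 2 arrays differed by far less than the distance between the pools. As 1 CONT pool served both contrasts, a high CONT pool and a fall in both running groups cannot be told apart.

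Below these, agreement between the arrays varied. Past 1.5-fold on the mean but not past the limits were Inhba, a subunit of activin, with 0.05 on array 1 and 1.37 on array 2, and so with 1 array deciding its mean of 0.71. RGD1560432 gave 0.46 and 0.81, LOC683753 gave 0.64 and 0.54, and TC550244 gave 0.61 and 0.57. Prl3d4, a placental member of the prolactin family that passed the limits, gave 0.64 and 0.60 (mean 0.62 ± 0.03), and ME against CONT gave 0.75. Its IE signals of 305.1 and 328.2 lay above CONT signals of 195.1 and 216.5. Among probes higher on both arrays, the next rises were Tcea3, a transcription elongation factor (0.55 ± 0.30), Reg3a, a secreted C-type lectin (0.53 ± 0.51), and Slc7a9, a cystine transporter subunit (0.51 ± 0.38). The last probe inside the 1.5-fold limit stood at 0.59 and the first outside it, a probe of Hspa12a with arrays in opposite directions, at 0.57.

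Among the falls, BF396498 gave -0.92 and -0.39 (mean -0.66 ± 0.38), CB546889 a mean of -0.61 ± 0.56 and Mrgpre, a Mas-related G protein-coupled receptor, -0.75 and -0.42 (mean -0.59 ± 0.23). The other 2 probes past 1.5-fold, AW525315 and LOC366396, had array 1 at 1.55 and 0.01 and array 2 at -2.82 and -1.25, so they did not go the same way. Further down stood Gtf2a1, a general transcription factor (-0.56 ± 0.14), Lin7a, a synaptic scaffold protein (-0.52 ± 0.07), Mx1, an interferon-induced GTPase (-0.51 ± 0.44), and Trhr, the receptor of thyrotropin-releasing hormone (-0.49 ± 0.34). Lin7a was as low in ME against CONT (-0.50).

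**Figure D3:**
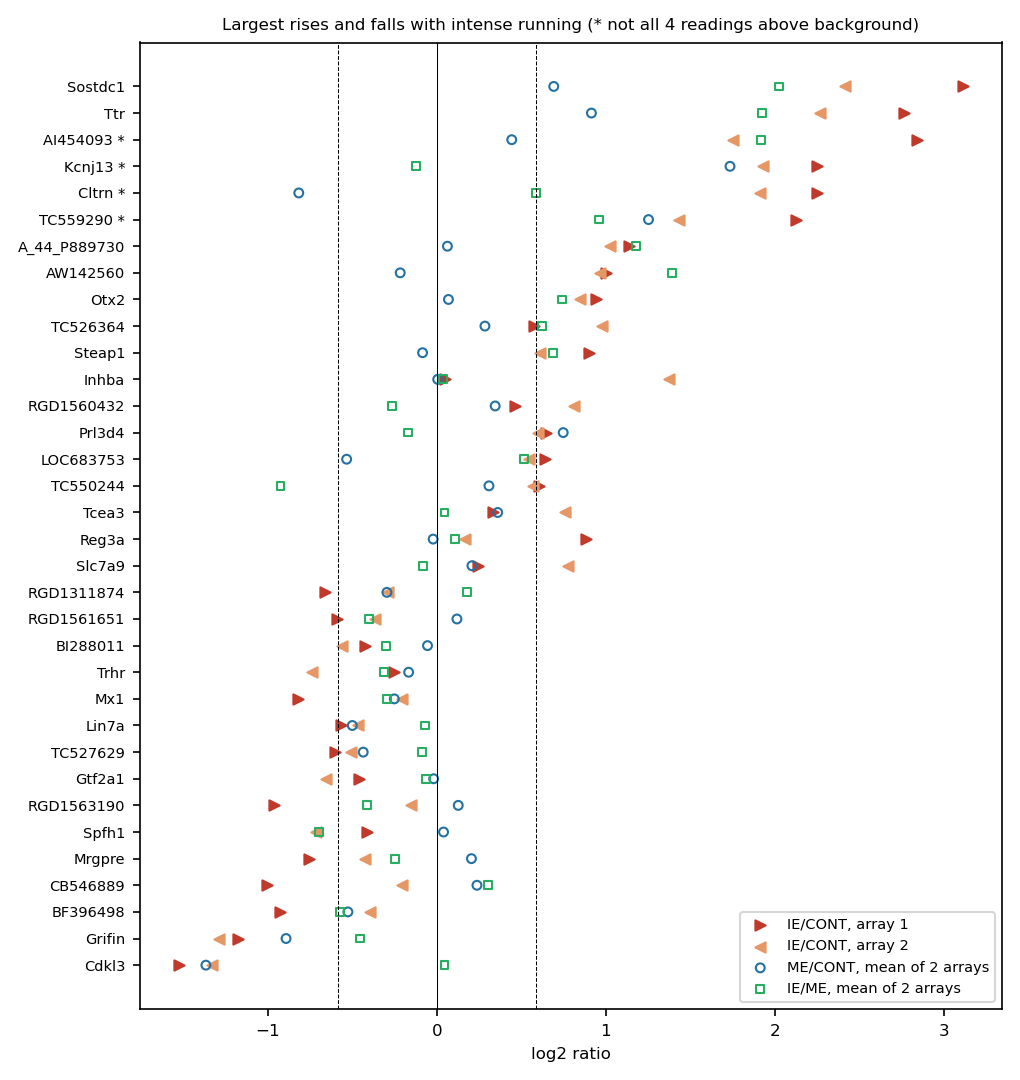
Log2 ratios (x axis) of the 34 probes past the study's limits or among the 15 largest rises and 15 largest falls, with filled triangles for IE/CONT on each array, open circles for the mean ME/CONT and open squares for the mean IE/ME; a star marks probes not well above background in all 4 readings and dashed lines mark 1.5-fold. Sostdc1 and Ttr lead the rises on both arrays, and for Cdkl3 the ME/CONT mean of -1.37 lies beside the IE/CONT arrays.

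The tissue label was checked by markers of the principal cells. Of 21 probes for dentate granule and pyramidal neurons 19 were well above background, and the exceptions were 1 probe with some readings and 1 with none. Their median was -3.2e-05 with none past 1.2-fold in either direction. Prox1, the granule cell transcription factor, gave 0.02 ± 0.31, and 4 probes of Calb1 (calbindin) lay between -0.07 and 0.0043. The interneuron list had a median of -0.025 over 16 probes, and the 3 probes of Gad1, the GABA-synthesising enzyme, gave -0.18, -0.11 and -0.02. Astrocytes (27 probes, median 0.006), microglia (26, 0.003), endothelium (22, -0.003), pericytes and vascular smooth muscle (12, -0.014) and ependyma (12, -0.014) had 0 probes past 1.2-fold. As 0.929% of all probes were higher and 0.894% lower at this fold, such counts of 0 are near that share. Gfap gave -0.54 on array 1 and 0.41 on array 2 (mean -0.07 ± 0.67), an example of a dye effect that cancels. Oligodendrocyte and myelin probes leaned upward, with a median of 0.046 and 18 of 23 above 0, and none passed 1.2-fold. Their largest value was that of Enpp2, the phospholipase autotaxin, at 0.23 ± 0.19.

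Markers of the meninges, the membranes around the brain, stayed within 1.2-fold. The list had a median of -0.011 over 27 probes with 0 past 1.2-fold, against 0.736 in ME against CONT over 27 and -0.651 in IE against ME over 26. The 2 probes of Col1a2, a subunit of type I collagen, gave -0.01 and -0.00 in IE against CONT. Igf2, insulin-like growth factor 2, gave -0.09 and 0.31 (mean 0.11 ± 0.28), and Crabp2 and Aldh1a2, of the retinoic acid pathway, gave -0.00 ± 0.02 and -0.03 ± 0.28. No meningeal probe thus passed 1.2-fold in the comparison in which 5 choroid plexus probes did. A count of 0 of 27 is itself near the share of all probes (0.929% higher and 0.894% lower).

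Genes from regions next to the hippocampus were few on the lists. The 5 readable thalamus probes had a median of 0.117, all above 0, with Gbx2 at 0.19 ± 0.32 and Lef1 at 0.17 ± 0.25. Among all probes 51.1% were above 0, and 4187 of 28744 were above 0 on both arrays. Hypothalamic and pituitary hormones had a median of 0.148 over 11 probes, above the 0.135 of the choroid plexus list. All 11 were above 0, and 8 were above 0 on both arrays. Besides Prl3d4, the largest were Oxt (oxytocin, 0.25 ± 0.24), Tshb (0.18 ± 0.14) and Avp (vasopressin, 0.17 ± 0.17). Without Prl3d4, which is placental, no member passed 1.2-fold. Striatal probes had a median of 0.054, with Pde10a, a phosphodiesterase of medium spiny neurons, lower by its mean of -0.42 ± 0.22.

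**Figure D4:**
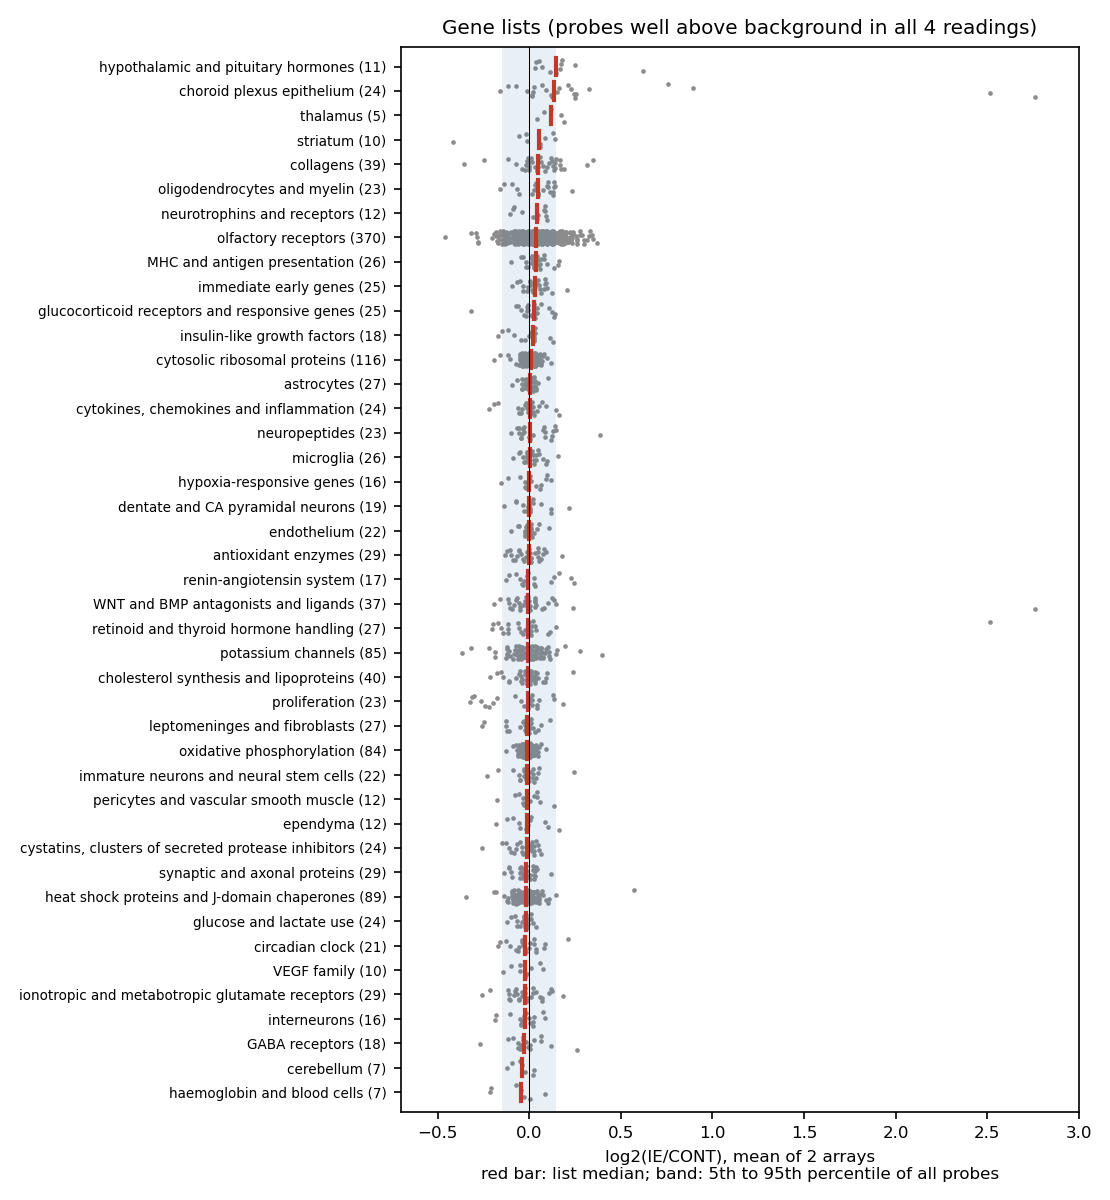
Mean log2(IE/CONT) (x axis) of the readable probes (grey points) of each gene list with at least 5 of them, number in brackets, with red bars for list medians and a band from the 5th to the 95th percentile of all probes (-0.148 to 0.144). List medians run from -0.048 to 0.148, and the points far to the right are Ttr and Sostdc1, which some lists share.

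The lists of growth factors and receptors that running is known to act on had no readable probe past 1.2-fold. Of all probes 0.929% were at least 1.2-fold higher and 0.894% lower, so a count of 0 in lists this short is near that share. The 2 probes of Bdnf, brain-derived neurotrophic factor, gave 0.10 ± 0.05 and 0.09 ± 0.02, higher on both arrays by less than 1.2-fold. Neurotrophins and their receptors had 12 readable probes, median 0.043 and 0 past 1.2-fold. The 4 probes of Igf1 gave values from -0.03 to 0.13, and the list of insulin-like growth factors, their binding proteins and receptors had 0 of 18 past 1.2-fold. Vegfa gave 0.06 ± 0.16 and -0.05 ± 0.10, and the VEGF family had 0 of 10 past 1.2-fold. Irs1, the insulin receptor substrate, Tnf, the inflammatory cytokine, Defb1, a defensin, and Gabra6, a cerebellar GABA receptor subunit, were not well above background in any reading. Bmp2, a bone morphogenetic protein, gave -0.16 ± 0.36 with its readable probe, and Bcl2, which restrains apoptosis, gave -0.01 ± 0.09.

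Stress-related genes gave a single probe past 1.2-fold, where 0.929% of all probes were higher and 0.894% were lower. In the list of glucocorticoid receptors and responsive genes, 25 probes had a median of 0.023, with 0 higher and 1 lower. The lower one was Nr3c2, the mineralocorticoid receptor (-0.38 and -0.26, mean -0.32 ± 0.08), whose other readable probe gave -0.02 ± 0.02. The glucocorticoid receptor Nr3c1 gave 0.02 ± 0.26 and -0.01 ± 0.12. Immediate early genes had a median of 0.030 with 18 of 25 above 0 and none past 1.2-fold, and the largest was Fos (-0.03 and 0.44, mean 0.20 ± 0.33). Trh, thyrotropin-releasing hormone, was the only neuropeptide past 1.2-fold (0.27 and 0.49, mean 0.38 ± 0.15), with 0.29 in ME against CONT.

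Probes of proliferating cells included 4 that were at least 1.2-fold lower, of 23 readable, and 0 that were higher, where 0.894% of all probes were lower. Both probes of Mcm4, a subunit of the replicative helicase, gave -0.33 ± 0.00 and -0.30 ± 0.10. Mcm6, of the same helicase, lay just past the limit at -0.26 ± 0.26. Top2a, topoisomerase II alpha, gave -0.32 ± 0.13 with one probe and -0.17 ± 0.31 with the other. As for the choroid plexus list, this count at 1.2-fold depends on the processing. The list as a whole had a median of -0.009, and Mki67 was not well above background in any reading. The list of immature neurons and neural stem cells had a median of -0.012 with none of 22 past 1.2-fold, and Dcx, doublecortin of migrating neuroblasts, gave -0.00 ± 0.10.

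Channels and receptors of neurons gave isolated values. Among 85 potassium channel probes 2 were at least 1.2-fold higher and 2 lower, against 0.929% and 0.894% of all probes. Kcne2, a channel subunit also found in the choroid plexus, gave 0.10 and 0.70 (mean 0.40 ± 0.42), and Kcnj12 gave -0.32 on both arrays. The other higher one, Kcnh4, had arrays in opposite directions (4.47 and -3.91), and the other lower one, Kcnk18, gave -0.69 and -0.04 (mean -0.37 ± 0.46). Glutamate receptors had 0 of 29 past 1.2-fold, with Grin2a, an NMDA receptor subunit, lowest at -0.26 ± 0.11 with one probe and at -0.08 ± 0.27 with the other. GABA receptors had 1 of 18, Gabra3 (-0.27 ± 0.30). Of 116 readable ribosomal protein probes and 84 oxidative phosphorylation probes none passed 1.2-fold, with medians of 0.009 and -0.012. Glucose and lactate use (median -0.021), hypoxia-responsive genes (0.00045) and antioxidant enzymes (-0.004) likewise had 0 probes past 1.2-fold. Heat shock proteins had 1 of 89 higher and 1 lower, near the shares of all probes. The higher one was a probe of Hspa12a with 1.98 on array 1 and -0.83 on array 2, while the other 3 probes of that gene gave -0.03 to -0.19.

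Olfactory receptors, which the hippocampus is not known to use widely, served as a view of dim probes. Only 370 of 1113 were well above background, with a median of 0.038, 11 at least 1.2-fold higher and 6 lower, where 0.929% and 0.894% of all probes were. The most extreme were Or55b4 (-0.90 and -0.02) and Olr1177 (0.24 and 0.49). Changes of this size are thus present in a family of mostly unreadable probes. The 5 probes whose arrays lay farthest apart had ratios of 3.77 to 4.86 on array 1 and -3.25 to -4.24 on array 2, that is a much higher Cy5 than Cy3 signal whichever pool was red. They were AI578566, Kcnh4, Rtbnd, AA891475 and Lrfn1, with means of -0.20 to 0.40.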

How the data were processed

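The members and gene lists used here were chosen with earlier results of these data known. Agilent rat 60-mer arrays were scanned by the authors, whose software (Feature Extraction 9.5.3.1, build rn3 in the file headers) subtracted background and normalised dyes. The deposited files hold intensity signals, the log10 ratio of Cy5 over Cy3, its p-value and flags that mark spots (other) per spot. The deposited value table holds the log10 ratio turned to exercise over reference, within 0.001 of the processed signals; its column medians ran from -0.0084 to 0.0071. The IE against ME files came from version 11.0.1.1.

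Control spots and outlier spots (245 and 150 of 43379) were left out. Ratios of 263 probes printed 10 times were averaged, converted to log2 and turned to IE over CONT. No spot was saturated. Symbols came from RefSeq by accession for 10735 probes, otherwise from the files. Text names probes past the study's limits, the 15 largest rises and falls with both arrays alike, up to 4 probes and the first genes of each of 44 lists, genes of the study's RT-PCR, and discordant probes; others were chosen after their values were seen. Averages were checked on simulated data. Alternatives used limma 3.58.1 in R 4.3.3 (normexp with offset 50, loess), and bounds used its Aquantile scaling. Python 3.11.15 and pandas 2.3.3 were used.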

Additional observations from a re-analysis of the deposited data

Results flagged for a closer look

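LOC683753, a predicted gene, was the single named probe past 1.2-fold in opposite directions in both running pools, on both arrays of each pair. IE against CONT gave 0.64 and 0.54 (mean 0.59), ME against CONT gave a mean of -0.53, and the difference was 1.12 (log2); it was not tested, and both contrasts share the CONT pool. IE against ME gave 0.52.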

How the results depend on the processing

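No paired analysis was possible because both arrays compare the same pair of pools with exchanged dyes. The 19 probes past 1.5-fold, 524 past 1.2-fold and 12 past the study's limits were the same in number with the authors' value table, and within 1.5 times with outlier spots kept, with each array centred on its median and, for the fold counts, with gene names in place of probes. Normexp and loess gave 6, 27 and 6, and loess without background subtraction gave 6, 26 and 6. The 6 past 1.5-fold were Sostdc1, Ttr, AW142560, Cdkl3, Grifin and LOC366396 under both, with Sostdc1 at 1.77 under each and Ttr at 2.33 and 2.32. With no filter on background 1475 and 5064 probes passed, among probes brighter than the median in every channel 6 and 60, and with the fold required on each array 9 and 119. Without the p threshold 273 passed the limits.

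Each array alone gave 442 to 565 probes past 1.5-fold, 4289 to 5110 past 1.2-fold and 585 to 758 past the limits; with the dye effect removed, 202 to 217 and 2194 to 2209. All 58 probes past 1.2-fold that the naming rule chose kept their direction under the other scalings and on array 1, and 50 of 58 did on array 2 alone. The largest rises and falls and the probes past the study's limits were chosen as alike on both arrays. For these the direction on a single array was fixed in advance, so the single-array counts are only a description. Turned on array 2 against array 1 were Kcnh4 (-3.91 against 4.47), Rtbnd (-3.47, 4.08), AI578566 (-4.24, 4.86), AA891475 (-3.25, 4.05), Hspa12a (-0.83, 1.98), Col9a1 (-0.32, 1.01), Or2y12 (-0.31, 1.01) and Col23a1 (0.21, -0.93). Outside the rule, AW525315 and LOC366396, lower by their means, turned on array 1 (1.55 and 0.01). With the dye effect removed, array 1 turned Olr1177 (-0.56), Kcne2 (-1.13) and AA891475 (-0.31), and array 2 turned Or55b4 (0.050), Kcnk18 (0.63) and Col23a1 (0.076). The cause was not tested. Dim probes limit the rest: 6501 probes were above background in some readings and 5767 in none.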
